A study of Mus musculus with 8 samples.

Results

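Collagens are the main structural proteins of the extracellular matrix, and 44 of the 53090 genes listed for each nerve carry a collagen symbol (*Col*, a type number, *a* and a chain number). All 44 passed edgeR's filter on low counts, as did 17090 genes in all. They were grouped by the structures their proteins build into 11 fibrillar collagens, 8 collagens of basement membranes and 25 others. RNA came from sciatic nerves of mice at postnatal day 7 (P7), with 4 nerves labelled WT (K1, L3, L4 and L9) and 4 labelled *Nae1* cKO (K2, L1, L5 and L8). Each nerve was taken as 1 mouse. In *Nae1* cKO mice both *Nae1* alleles were floxed and a Cre transgene acted in Schwann cells from before birth. The WT mice were littermates without Cre, and they too carried floxed *Nae1*, on a single allele or on both. *Nae1* encodes a subunit of the enzyme that activates NEDD8, a ubiquitin-like modifier, and Cre removes its exon 4. The study describes that Cre as specific to Schwann cells. Whether fibroblasts and the other cells of the nerve all keep the gene was not measured here. Whether the outer sheath was stripped from the nerves before RNA was taken is not given in the sources used here.

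A collagen molecule is a helix of 3 chains, which may be products of 1, 2 or 3 genes. Fibrillar collagens pack into the cross-striated fibres of the endoneurium and of the sheaths around the nerve, and FACIT collagens attach to the surface of these fibres. Type IV collagens form a network within the basement membrane, which surrounds each Schwann cell with its axons and which Schwann cells need in order to myelinate. Fibroblasts, perineurial cells, endothelial cells and Schwann cells all make collagens, so a whole nerve gives the sum over them. In such bulk samples, fewer cells of a type and less RNA per cell cannot be told apart.

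The 3 promoter sequences shown here belong to members whose change held in every alternative analysis, 2 of them higher and 1 lower in *Nae1* cKO nerves. They give the 250 bases before the gene's start, 5′ to 3′ on the gene's strand, from RefSeq on GRCm38.p6. Capitals mark matches to the searched motifs, which were AP-1 (TGANTCA), EGR (GCGNGGGCG), TEAD (GGAATG), the CCAAT box (CCAAT), the TATA box (TATAAA) and the GC box (GGGCGG), on either strand.
Col8a1, chr16:57754738-57754987, minus strand: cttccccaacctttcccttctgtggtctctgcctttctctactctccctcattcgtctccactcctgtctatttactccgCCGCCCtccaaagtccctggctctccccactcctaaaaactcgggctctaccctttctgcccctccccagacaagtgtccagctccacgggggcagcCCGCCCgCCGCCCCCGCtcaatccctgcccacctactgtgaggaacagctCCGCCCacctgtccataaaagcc
Col16a1, chr4:130047590-130047839, plus strand: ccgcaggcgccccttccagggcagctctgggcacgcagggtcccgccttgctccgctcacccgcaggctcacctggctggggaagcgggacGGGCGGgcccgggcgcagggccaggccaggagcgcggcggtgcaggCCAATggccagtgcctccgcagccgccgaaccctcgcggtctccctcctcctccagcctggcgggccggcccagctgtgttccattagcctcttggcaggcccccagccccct
Col19a1, chr1:24587438-24587687, minus strand: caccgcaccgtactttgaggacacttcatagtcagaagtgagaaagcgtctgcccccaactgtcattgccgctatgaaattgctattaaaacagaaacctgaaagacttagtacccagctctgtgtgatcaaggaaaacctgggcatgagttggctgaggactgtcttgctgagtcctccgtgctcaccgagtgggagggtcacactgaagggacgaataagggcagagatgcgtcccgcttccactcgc
The *Col8a1* stretch held 4 GC boxes, 1 of them overlapping its EGR match, and the *Col16a1* stretch held a CCAAT box and a GC box. The *Col19a1* stretch held none of the 6 motifs. Promoters were found for 35 of the 44 members, and windows of 300 bases (250 before the start and 50 after it) were searched in these and in all 32851 RefSeq promoters. The EGR motif was present for 3 members (*Col8a1*, *Col4a1* and *Col4a2*) and in 5.55% of all windows. AP-1 was present for 1 member (*Col6a1*) and in 7.81% of all windows. TEAD was present for 5 members (*Col3a1*, *Col4a6*, *Col6a2*, *Col18a1* and *Col20a1*) and in 14.7% of all windows. A GC box was present for 22 members and in 35.7% of all windows, a CCAAT box for 13 members and in 37.4%, and a TATA box for 5 members and in 13.6%. The median GC content of the members' windows was 59.8%, against 52.7% over all windows. The genes for the 2 main type IV chains start head to head, and the bases between their starts, which include the EGR match of both, are given on the plus strand with capitals at the start of *Col4a2* and at that of *Col4a1*.
Col4a2 and Col4a1, chr8:11312805-11312826: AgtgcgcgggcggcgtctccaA
Their windows shared 78 bases. In GENCODE vM21 on GRCm38, *Col8a1* (ENSMUSG00000068196.4) lies on chromosome 16, 57624258 to 57754737, minus strand. *Col16a1* (ENSMUSG00000040690.15) is on chromosome 4, 130047840 to 130099283, plus strand. *Col19a1* (ENSMUSG00000026141.13) is on chromosome 1, 24261890 to 24587472, minus strand. *Col12a1* (ENSMUSG00000032332.17) occupies chromosome 9, 79598991 to 79718831, minus strand. *Col24a1* (ENSMUSG00000028197.4) occupies chromosome 3, 145292472 to 145552011, plus strand. *Col18a1* (ENSMUSG00000001435.15) lies on chromosome 10, 77052178 to 77166548, minus strand.

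*Nae1* mRNA was at 89.8, 81.3, 77.7 and 82.7 CPM (counts scaled by TMM and library size) in WT nerves and at 57.1, 57.2, 48.9 and 43.8 CPM in *Nae1* cKO nerves (log2 fold change −0.68, edgeR adjusted p = 2.8e-04). Each library held 12962798 to 14766770 expected counts. Of the listed markers, myelin proteins summed to 44494 to 67835 CPM in WT nerves and 18012 to 21523 CPM in *Nae1* cKO nerves, and no listed Schwann lineage, fibroblast or myelin marker was at 0 in any nerve. Skeletal muscle markers were uneven among WT nerves, with a sum of 1460 CPM in K1, 412 in L3, 2325 in L4 and 159 in L9, against at most 253.9 CPM in *Nae1* cKO nerves. Nerve K2 stood apart from the other *Nae1* cKO nerves, with Spearman correlations across genes of 0.973 to 0.978 against 0.989 to 0.992 among the other 3, and with 4.70% of its counts in the RNA 7SK against 1.94% to 2.43%. Where leaving out K2 changed the call of a collagen gene, that is stated with the gene.

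Collagen genes held more of the counts in *Nae1* cKO nerves on average. Their share was 2.74%, 3.23%, 2.79% and 2.51% in WT nerves and 3.21%, 3.72%, 3.83% and 3.87% in *Nae1* cKO nerves. The lowest cKO nerve, K2, lay just below the highest WT nerve, L3. The log2 ratio of the mean shares was 0.38, and that of the summed collagen CPM, scaled by TMM, was 0.22. A share of all counts is on the scale of library totals, on which the median log2 fold change of all genes was 0.16. Of the 44 genes, 15 were higher and 7 lower in *Nae1* cKO than in WT nerves (edgeR's quasi-likelihood test, adjusted p under 0.05). The 22 called are 50% of the members, whereas 26.4% of all genes tested were called (14.1% higher and 12.3% lower). Past 2-fold as well were 6 higher and 2 lower members, 18.2% of the family, against 6.75% of all genes (4.25% higher and 2.49% lower). The CPM of the 2 groups did not overlap for 13 members that were higher (14.9% of all genes) and 5 that were lower (13.7% of all genes). The median log2 fold change was 0.11 over the family and 0.0066 over all genes. Of the 22 calls, 10 held under all 21 alternatives, *Col25a1* held in the 20 that tested it, and 16 held without any 1 nerve. On deposited TPM (a level per transcript length), 11 members were higher and 1 was lower by limma on log2(TPM + 1), with no gain and with the calls of *Col3a1*, *Col5a3*, *Col6a1*, *Col6a6*, *Col7a1*, *Col8a2*, *Col9a3*, *Col11a2*, *Col23a1* and *Col28a1* lost. That test called 9.23% of all genes (6.82% higher and 2.41% lower). The split of calls also moved with scaling, to 17 higher and 5 lower members with library totals and 16 and 4 on log2(FPKM + 1). Over all genes, 53.5% of calls were higher with TMM, 75.5% with library totals, 73.9% on log2(TPM + 1) and 76.4% on log2(FPKM + 1).

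**Figure D1:**
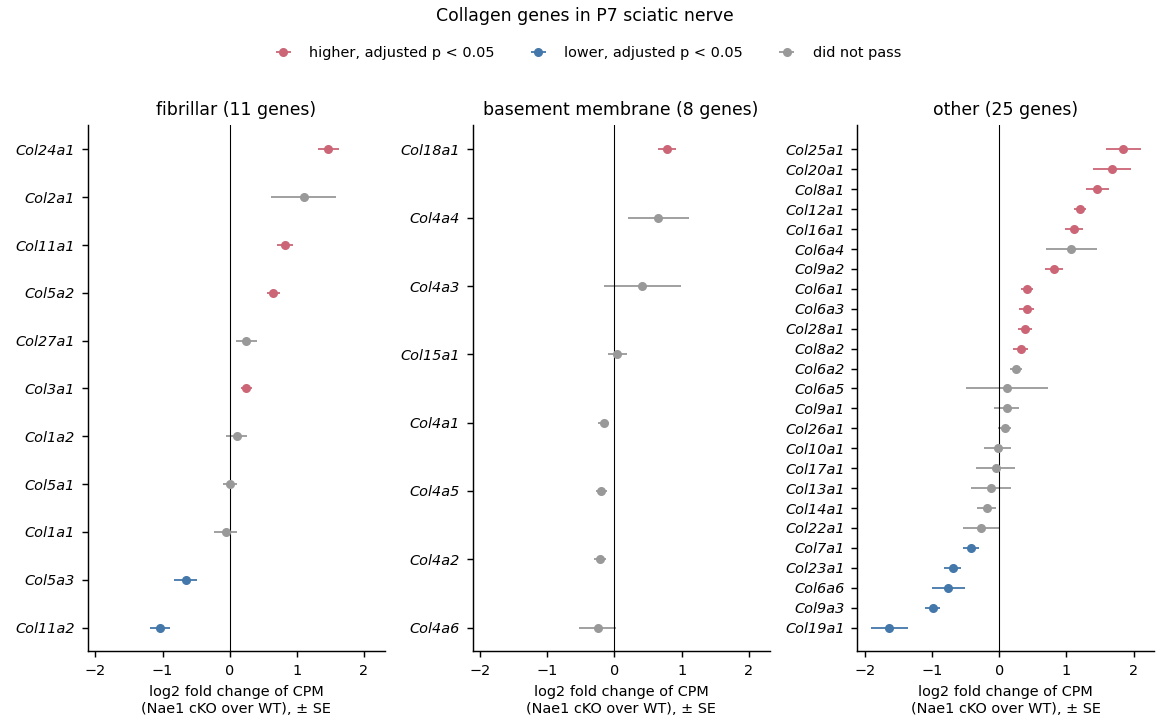
Log2 fold change of CPM (*Nae1* cKO over WT, horizontal axis) with its SE for all 44 collagen genes, 1 row per gene in panels of fibrillar, basement membrane and other collagens. Points are coloured by whether edgeR's adjusted p was under 0.05 and the gene was higher or lower. In the basement membrane panel *Col18a1* (0.78) is the gene that passed, while the other panels run from −1.64 (*Col19a1*) to 1.85 (*Col25a1*).

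Fibrillar collagens made up most of the collagen mRNA per length in both genotypes. Their share of all collagen TPM was 71.4% ± 1.48 in WT nerves and 70.4% ± 1.25 in *Nae1* cKO nerves (SD, n = 4), and the groups overlapped. The share of basement membrane collagens was 13.1, 11.2, 13.0 and 13.5% in WT nerves and 10.9, 10.2, 9.64 and 11.1% in *Nae1* cKO nerves. Every cKO nerve lay below every WT nerve, the nearest being WT L3 and cKO L8. The share of other collagens was 15.3, 15.7, 15.5 and 17% in WT nerves and 20.1, 18.1, 19.2 and 19.4% in *Nae1* cKO nerves, with no overlap. These shares are sums over the members and carry no test. Summed over the family, TPM came to 3702, 4694, 4635 and 4252 in WT nerves and 3404, 7571, 6111 and 5917 in *Nae1* cKO nerves. K2 was the lowest of all nerves on that scale and not on CPM (29507, 32922, 29502 and 26922 in WT and 32905, 33560.1, 36106 and 36103 in *Nae1* cKO nerves). The 10 most abundant genes of each nerve, most of them small RNAs, took 57.4% to 71.7% of its TPM. *Col3a1* alone held 47.8% ± 1.04 of collagen TPM in WT and 47.6% ± 2.85 in *Nae1* cKO nerves (SD, n = 4). The next by mean TPM over all nerves were *Col1a2* (418), *Col1a1* (282), *Col4a1* (252), *Col5a2* (228), *Col15a1* (153) and *Col4a2* (139), against 2411 for *Col3a1*. Among the other collagens *Col6a3* (132), *Col14a1* (116) and *Col6a2* (114) led.

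**Figure D2:**
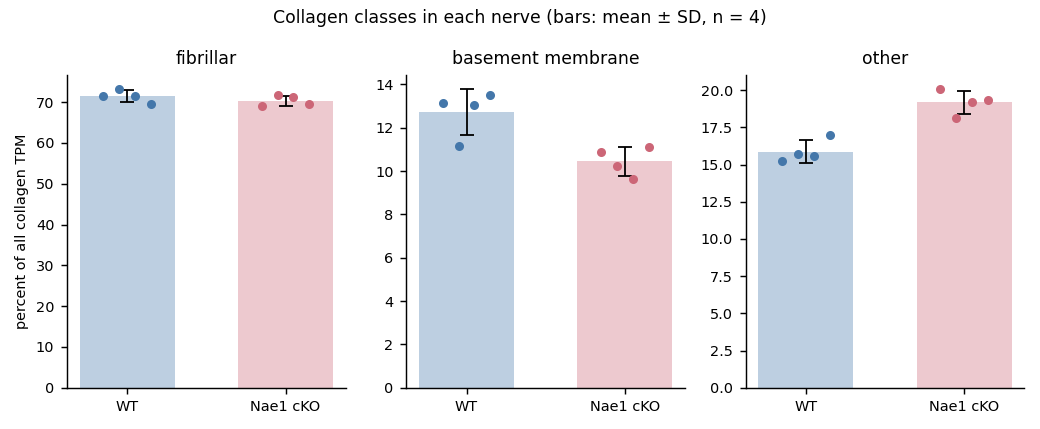
Share of all collagen TPM (percent, vertical axis, each panel with its own scale from 0) held by fibrillar, basement membrane and other collagens in WT and *Nae1* cKO nerves. Points are nerves and bars are means with SD (n = 4). In the other collagens the 4 *Nae1* cKO nerves (18.1% to 20.1%) lie above the 4 WT nerves (15.3% to 17%), and in the basement membrane collagens they lie below (9.64% to 11.1% against 11.2% to 13.5%).

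Among the 11 fibrillar genes, 4 were higher, 2 were lower and 5 did not pass (median log2 fold change 0.24). *Col3a1* encodes the single chain of type III collagen, which forms fine reticular fibres. It was at 12018, 13084, 11625 and 11244 CPM in WT nerves and 13674, 13710.0, 15179.7 and 14228 CPM in *Nae1* cKO nerves, all cKO nerves above all WT nerves, a small difference (log2 fold change 0.24, SE 0.0820, adjusted p = 0.0457 in edgeR) that lost its call without any 1 of K1, L4, L9, L1, L5 and L8 (adjusted p up to 0.169). The 2 chains of type I collagen, the bulk of most fibres, did not pass. *Col1a1* was at 2304, 2886, 2385 and 1542 CPM in WT nerves and 1893, 1974, 2214 and 2660.5 CPM in *Nae1* cKO nerves (log2 fold change −0.061, edgeR adjusted p = 0.838), and *Col1a2* was at 2503, 3077, 3118 and 2060.3 CPM in WT nerves and 2271, 2794, 3034 and 3457 CPM in *Nae1* cKO nerves (0.10, edgeR adjusted p = 0.669, and 0.19 without K2). For both, WT L9 was the lowest of all nerves and the groups overlapped.

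Type V collagen sits in the core of type I fibres and limits their width, and its 3 chains differed from each other in what the test gave. *Col5a2* was at 1426, 1850.1, 1389.7 and 1496 CPM in WT nerves and 2647, 2332, 2463 and 2241 CPM in *Nae1* cKO nerves. All cKO nerves were higher (log2 fold change 0.65, SE 0.102, adjusted p = 5.5e-04 in edgeR), in all 21 alternatives. *Col5a1* was at 1526, 1855, 1476 and 1482 CPM in WT nerves and 1389, 1535, 1639.6 and 1793 CPM in *Nae1* cKO nerves, overlapping ranges in which WT L3 was the highest of all nerves (0.0044, edgeR adjusted p = 0.98). *Col5a3* was lower, at 396, 319, 378 and 254 CPM in WT nerves and 288, 179.8, 186 and 201 CPM in *Nae1* cKO nerves. K2 lay within the WT range and the other 3 cKO nerves below it (log2 fold change −0.66, SE 0.175, adjusted p = 0.0188 in edgeR, −0.84 and 0.00129 without K2), and the call was lost without any 1 of K1, L4, L1, L5 and L8 (adjusted p up to 0.0579). K1 and L4, the WT nerves with the most muscle marker RNA, were its highest nerves. Without both, *Col5a3* did not pass (−0.43, edgeR adjusted p = 0.199), nor did it on log2(TPM + 1) (limma adjusted p = 0.136), and the part of muscle RNA in its values was not tested.

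Of the type XI chains, which do in cartilage what type V does elsewhere, 1 was higher and 1 lower. *Col11a1* was at 250.2, 370.3, 299.9 and 348 CPM in WT nerves and 509.7, 551, 609.6 and 569 CPM in *Nae1* cKO nerves, with all cKO nerves above all WT nerves (log2 fold change 0.82, SE 0.116, adjusted p = 2.5e-04 in edgeR). *Col11a2*, at a much lower level, was at 12.2, 14.3, 9.61 and 11.3 CPM in WT nerves and 5.82, 5.29, 5.44 and 6.55 CPM in *Nae1* cKO nerves, with all cKO nerves below (log2 fold change −1.04, SE 0.151, adjusted p = 3.2e-04 in edgeR). On TPM the *Col11a2* call was lost (−0.46, limma adjusted p = 0.167). The minor fibrillar collagen *Col24a1* was at 10.4, 12.4, 8.61 and 8.50 CPM in WT nerves and 34.9, 23.5, 25.3 and 27.0 CPM in *Nae1* cKO nerves. Its lowest cKO nerve was above its highest WT nerve, and the fold was the largest of the fibrillar class (log2 fold change 1.47, SE 0.157, adjusted p = 3.2e-05 in edgeR). *Col27a1* (0.25, edgeR adjusted p = 0.287, and 0.38 and 0.0136 without K2) and *Col2a1*, the cartilage collagen (1.1, edgeR adjusted p = 0.153), did not pass with all nerves. *Col2a1* was at 49.7 CPM in WT L3 and at 14.2 to 16.5 CPM in the other WT nerves, against 31.5 to 67.2 CPM in *Nae1* cKO nerves. Without L3 it passed (1.76, edgeR adjusted p = 5.6e-04).

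Among the 8 basement membrane genes, *Col18a1* was higher and the other 7 did not pass. Their median log2 fold change was −0.061, and 0.067 on log2(TPM + 1), where the median of all genes was 0.10. *Col18a1* encodes the heparan sulfate-bearing core protein that releases endostatin. It was at 86.2, 125, 101 and 76.8 CPM in WT nerves and 171, 156, 168 and 174 CPM in *Nae1* cKO nerves, with all cKO nerves above all WT nerves (log2 fold change 0.78, SE 0.129, adjusted p = 8.4e-04 in edgeR), in all 21 alternatives. *Col4a1* and *Col4a2*, the chains of the type IV network found in nearly all basement membranes, had values below 0 that missed the threshold. *Col4a1* was at 1936, 1949, 1821 and 1743 CPM in WT nerves and 1653, 1666, 1574 and 1759 CPM in *Nae1* cKO nerves (−0.16, edgeR adjusted p = 0.137). Of its cKO nerves, K2, L1 and L5 lay below every WT nerve. *Col4a2* was at 1369.5, 1274, 1198 and 1115 CPM in WT nerves and 1181, 1017, 981 and 1094 CPM in *Nae1* cKO nerves (−0.21, edgeR adjusted p = 0.103), with K2 the highest cKO nerve. Without K2, *Col4a2* passed (−0.27, edgeR adjusted p = 0.0325), as it did with the letter of the nerves' names (K or L) as a term (edgeR adjusted p = 0.0461). *Col4a1* passed in DESeq2 (adjusted p = 0.0398), and on log2(FPKM + 1) the values of both genes were just above 0 (0.012 and 0.016). The median of all genes on log2(FPKM + 1) was 0.13.

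The level of basement membrane collagens as a whole depended on the scale. Their summed level was 3971 ± 217 CPM in WT and 3694 ± 185 CPM in *Nae1* cKO nerves, and 547 ± 52.5 TPM and 598 ± 169.7 TPM (SD, n = 4). The difference thus changed sign between the scales, with a log2 ratio of the means of −0.10 on CPM and 0.13 on TPM. The median of all genes on log2(TPM + 1) was itself 0.10. In TPM the *Nae1* cKO nerves ran from 370 (K2) to 773 (L1). *Col15a1*, a collagen of basement membrane zones and the second of this class by TPM, was at 765, 489.5, 793 and 706 CPM in WT nerves and 682, 612, 749.9 and 789 CPM in *Nae1* cKO nerves, with overlap (0.041, edgeR adjusted p = 0.866). *Col4a5* was at 53.8 to 66.6 CPM in WT and 50.2 to 54.9 CPM in *Nae1* cKO nerves (−0.20, edgeR adjusted p = 0.105, and 0.0493 without K1), and *Col4a6* was under 3 CPM in every nerve. *Col4a3* and *Col4a4*, which encode the kidney and inner ear chains, were highest in K2, at 11.9 and 48.1 CPM, and next in K1, at 8.40 and 27.4 CPM. The other 6 nerves had 1.91 to 4.39 CPM of *Col4a3* and 10.2 to 21.7 CPM of *Col4a4*. Neither passed, and without K2 their log2 fold changes went from 0.41 to −0.22 and from 0.65 to 0.17 (edgeR adjusted p = 0.766 and 0.768). *Col4a4* passed with the name letter as a term (0.61, edgeR adjusted p = 0.0043) and in the L nerves alone (0.53, edgeR adjusted p = 0.0402).

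FACIT collagens had the most members past 2-fold. Of 9, 4 were higher and 2 lower. *Col12a1*, which binds type I fibres and is made where tissue bears load, was at 559.7, 672, 520.5 and 561 CPM in WT nerves and 1221, 1378, 1377 and 1329.6 CPM in *Nae1* cKO nerves. The groups stood far apart relative to their spread (log2 fold change 1.20, SE 0.0920, adjusted p = 2.6e-06 in edgeR), and the smallest adjusted p of the family was here. *Col16a1*, which ties fibres to their surroundings, was at 209, 303, 216 and 179 CPM in WT nerves and 481, 476, 488 and 515 CPM in *Nae1* cKO nerves, again with no overlap (log2 fold change 1.11, SE 0.136, adjusted p = 1.1e-04 in edgeR). *Col20a1* was at 4.02, 2.68, 2.30 and 1.75 CPM in WT nerves and 13.1, 7.59, 7.34 and 6.69 CPM in *Nae1* cKO nerves. K2 was the highest nerve and the other 3 were also above every WT nerve (log2 fold change 1.68, SE 0.280, adjusted p = 9.1e-04 in edgeR, 1.41 without K2). *Col14a1*, the FACIT with the highest level per length, was at 792, 958, 986 and 914 CPM in WT nerves and 580.3, 876, 979.8 and 767 CPM in *Nae1* cKO nerves and did not pass (−0.19, edgeR adjusted p = 0.369, and −0.069 without K2).

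Type IX collagen coats cartilage fibres and joins 3 chains in 1 molecule, of which 1 was higher and 1 lower. *Col9a2* was at 66.8, 78.8, 58.8 and 82.1 CPM in WT nerves and 139.6, 95.4, 131 and 139 CPM in *Nae1* cKO nerves, with no overlap (log2 fold change 0.82, SE 0.137, adjusted p = 0.00104 in edgeR). *Col9a3* was at 30.7, 28.6, 27.0 and 36.1 CPM in WT nerves and 15.9, 14.7, 15.2 and 15.6 CPM in *Nae1* cKO nerves, each cKO nerve at close to the same level and below every WT nerve (log2 fold change −0.99, SE 0.107, adjusted p = 3.4e-05 in edgeR). On log2(TPM + 1) it missed the threshold (−0.72, limma adjusted p = 0.0609). *Col9a1* was at 8.03 to 13.0 CPM in WT and 8.85 to 13.0 CPM in *Nae1* cKO nerves (0.11, edgeR adjusted p = 0.709). *Col19a1*, a FACIT of muscle and brain, was lower, at 8.18, 13.0, 11.2 and 14.2 CPM in WT nerves and 1.87, 5.50, 3.6 and 3.90 CPM in *Nae1* cKO nerves, with no overlap and with K2 the lowest nerve (log2 fold change −1.64, SE 0.275, adjusted p = 0.00106 in edgeR). *Col22a1* was under 5 CPM in every nerve and did not pass (−0.27, edgeR adjusted p = 0.509).

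**Figure D3:**
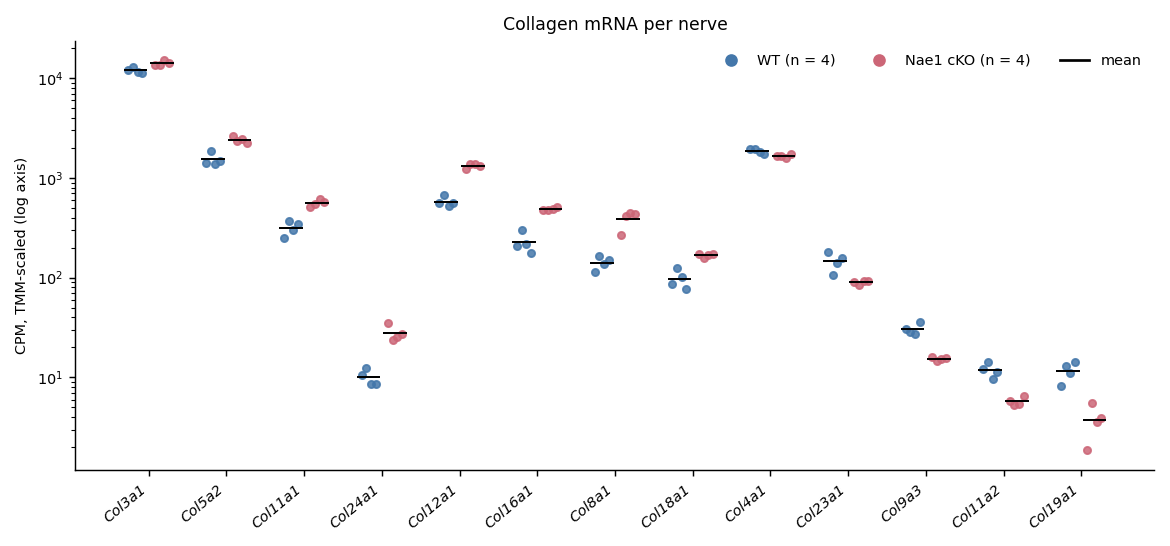
CPM on a log axis for 13 collagen genes, 1 point per nerve (WT and *Nae1* cKO, n = 4 each) with the group mean as a bar. *Col5a2*, *Col11a1*, *Col24a1*, *Col12a1*, *Col16a1*, *Col8a1* and *Col18a1* have every *Nae1* cKO nerve above every WT nerve, and *Col23a1*, *Col9a3*, *Col11a2* and *Col19a1* have every one below, over levels from 1.87 CPM (*Col19a1* in K2) to 15179.7 CPM (*Col3a1* in L5).

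Type VI collagen forms beaded filaments around cells from *Col6a1*, *Col6a2* and 1 further chain, in the nerve mostly *Col6a3*. *Col6a1* was at 493, 619, 526 and 489 CPM in WT nerves and 672, 686, 726 and 754 CPM in *Nae1* cKO nerves, with no overlap (log2 fold change 0.42, SE 0.0900, adjusted p = 0.0046 in edgeR). The call was lost on log2(TPM + 1) (limma adjusted p = 0.154) and without K1 and L4 (edgeR adjusted p = 0.0856). *Col6a3* was at 956, 1149, 910.3 and 772 CPM in WT nerves and 1284, 1233, 1216 and 1294 CPM in *Nae1* cKO nerves, also with no overlap (log2 fold change 0.41, SE 0.108, adjusted p = 0.0142 in edgeR), a call lost without K1 and L4 (edgeR adjusted p = 0.131). *Col6a2* was at 532, 641, 532 and 585 CPM in WT nerves and 624, 633, 709 and 748 CPM in *Nae1* cKO nerves. Its K2 and L1 lay under WT L3, and it did not pass (0.25, edgeR adjusted p = 0.0665), though it did without K2 (0.28, edgeR adjusted p = 0.0339) or without L3 (0.0327), and with the name letter as a term (0.0378). *Col6a6* was lower, at 20.5, 13.9, 19.7 and 11.3 CPM in WT nerves and 6.04, 11.9, 8.70 and 12 CPM in *Nae1* cKO nerves, with overlap and a call lost without any 1 of K1, L4, K2 and L5 (log2 fold change −0.76, SE 0.244, adjusted p = 0.0407 in edgeR, adjusted p up to 0.114 without 1 nerve). K1 and L4, the WT nerves with the most muscle marker RNA, were its highest, and the call was also lost without both (adjusted p = 0.397 in edgeR) and with the name letter as a term (adjusted p = 0.0602). *Col6a4* (1.07, edgeR adjusted p = 0.0561, and 0.0231 without K2 or 0.0433 without L9) and *Col6a5* (0.11, edgeR adjusted p = 0.919) did not pass, and *Col6a5* ran from 11.4 to 102 CPM within WT nerves alone.

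The short-chain collagens of type VIII make hexagonal networks, and both chains were higher. *Col8a1* was at 113, 167, 136 and 151 CPM in WT nerves and 268, 416, 442 and 437 CPM in *Nae1* cKO nerves. K2 was well below the other cKO nerves and still above every WT nerve (log2 fold change 1.46, SE 0.168, adjusted p = 1.1e-04 in edgeR). *Col8a2* was at 34.5, 39.2, 28.3 and 34.6 CPM in WT nerves and 44.3, 37.6, 42.5 and 45.8 CPM in *Nae1* cKO nerves, with overlap. It was called (log2 fold change 0.32, SE 0.108, adjusted p = 0.0477 in edgeR), and the call was lost without any 1 of K1, L4, L9, K2, L5 and L8 (adjusted p up to 0.13) and on log2(TPM + 1) (limma adjusted p = 0.362). *Col10a1*, the third of this group and known from growing cartilage, did not pass (−0.021, edgeR adjusted p = 0.954).

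Of the collagens that span the cell membrane, *Col25a1*, which developing muscle needs in order to be innervated, was higher. It was at 0.584, 1.01, 0.646 and 0.715 CPM in WT nerves and 2.31, 3.34, 2.58 and 2.51 CPM in *Nae1* cKO nerves (log2 fold change 1.85, SE 0.260, adjusted p = 2.5e-04 in edgeR), the largest fold of the family at one of its lowest levels. *Col23a1* was lower, at 179, 107, 141 and 157 CPM in WT nerves and 90.8, 84.8, 93.5 and 91.9 CPM in *Nae1* cKO nerves, with every cKO nerve below every WT nerve (log2 fold change −0.69, SE 0.130, adjusted p = 0.00197 in edgeR). On log2(TPM + 1) that call was lost (−0.50, limma adjusted p = 0.204). *Col13a1* (−0.12, edgeR adjusted p = 0.811) and *Col17a1* (−0.056, edgeR adjusted p = 0.913) stayed under 2 CPM in every nerve and did not pass.

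*Col28a1*, a collagen found in peripheral nerve beside non-myelinating Schwann cells, was at 474, 423, 421 and 502 CPM in WT nerves and 618, 654, 612 and 484 CPM in *Nae1* cKO nerves. L8 lay within the WT range and the other 3 cKO nerves above it (log2 fold change 0.38, SE 0.103, adjusted p = 0.0164 in edgeR), and the call was lost without any 1 of L4, L1 and L5 (adjusted p up to 0.0556), on log2(TPM + 1) (limma adjusted p = 0.19) and without K1 and L4 (edgeR adjusted p = 0.136). *Col7a1*, the anchoring fibril collagen of skin, was at 34.1, 27.3, 23.8 and 29.4 CPM in WT nerves and 22.2, 18.7, 23.1 and 21.5 CPM in *Nae1* cKO nerves, with all cKO nerves lower (log2 fold change −0.42, SE 0.120, adjusted p = 0.0209 in edgeR). Its call was lost without K1 or L1 (adjusted p up to 0.0714), and on TPM and FPKM its value was above 0 (0.066 and 0.070 with a pseudocount of 1). The medians of all genes on these 2 scales were higher, at 0.10 and 0.13. *Col26a1* was at 116 to 142 CPM in WT and 111 to 142 CPM in *Nae1* cKO nerves and did not pass (0.078, edgeR adjusted p = 0.598).

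Pairs of collagen chains, in all but *Col3a1* to *Col1a1* chains of the same collagen type, were compared as log2 ratios of their TPM within a nerve, which library scaling does not touch. The ratio of *Col5a2* to *Col5a1* was 0.31, 0.41, 0.32 and 0.45 in WT nerves and 1.36, 1.03, 0.98 and 0.75 in *Nae1* cKO nerves. All cKO nerves were above all WT nerves (difference 0.66, two-sided exact permutation p = 0.0286, adjusted p = 0.0667 over the 7 ratios). The ratio of *Col6a2* to *Col6a1* was 0.12, 0.049, 0.013 and 0.27 in WT and −0.099, −0.11, −0.023 and 0.0013 in *Nae1* cKO nerves, all below (difference −0.17, two-sided exact permutation p = 0.0286, adjusted p = 0.0667 over the 7 ratios). The ratio of *Col6a3* to *Col6a1* was 0.10, 0.10, 0.043 and −0.10 in WT and 0.54, 0.40, 0.27 and 0.21 in *Nae1* cKO nerves, all above (difference 0.32, two-sided exact permutation p = 0.0286, adjusted p = 0.0667 over the 7 ratios). On counts in place of TPM that last difference was 9.1e-04, so it was present on TPM and not on counts. TPM divides by an estimated transcript length. The log2 ratio of the mean lengths (*Nae1* cKO over WT) was −0.31 for *Col6a3* and 0.0045 for *Col6a1*. The smallest p that 4 nerves against 4 allow is 0.0286, and none of the 7 ratios passed after adjustment. The remaining ratios overlapped between the groups: *Col5a3* to *Col5a1* (−0.65, exact p = 0.0857), *Col3a1* to *Col1a1* (0.25, exact p = 0.314), *Col1a2* to *Col1a1* (0.13, exact p = 0.314) and *Col4a2* to *Col4a1* (0.0039, exact p = 0.943).

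**Figure D4:**
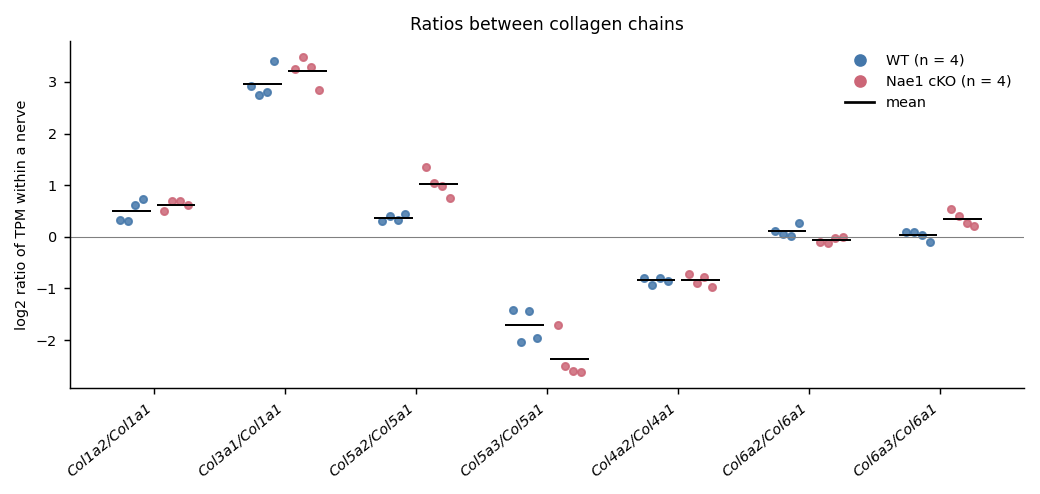
Log2 ratio of the TPM of 2 collagen chains within each nerve (vertical axis) for 7 ratios, with 1 point per nerve and the group mean as a bar. For *Col5a2* over *Col5a1* the *Nae1* cKO nerves (0.75 to 1.36) lie above the WT nerves (0.31 to 0.45), while for *Col4a2* over *Col4a1* the groups overlap.

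For some members the length of the mRNA that the reads were assigned to also differed. RSEM gives each gene a transcript length averaged over its isoforms by their estimated abundance. For *Col16a1* it was 3646, 3609.7, 3253 and 3244 bases in WT nerves and 2858, 2463, 2571 and 2637 bases in *Nae1* cKO nerves. For *Col6a3* it was 7259, 6858, 6674 and 6770.1 bases in WT and 5306, 5458, 5596 and 5938 bases in *Nae1* cKO nerves. For both, every cKO nerve was shorter. The mean length fell by 23.4% for *Col16a1* and fell by 19.1% for *Col6a3*, and that of *Col5a1*, with no overlap either, fell by 0.651% (two-sided exact permutation test, unadjusted p = 0.0286 each). The lengths of the other 41 of the 44 members overlapped. Among all genes tested, the lengths of the groups did not overlap in 2.81% (1.86% shorter and 0.948% longer). The log2 ratio of the mean lengths was −0.39 for *Col16a1* and −0.31 for *Col6a3*. The log2 difference in *Col16a1* was 1.11 on counts and 1.65 on log2(TPM + 1), and in *Col6a3* it was 0.41 and 0.85, while the median of all genes was 0.0066 and 0.10 on these scales. The files give these lengths as estimates only, and which isoforms changed was not analysed here.

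**Figure D5:**
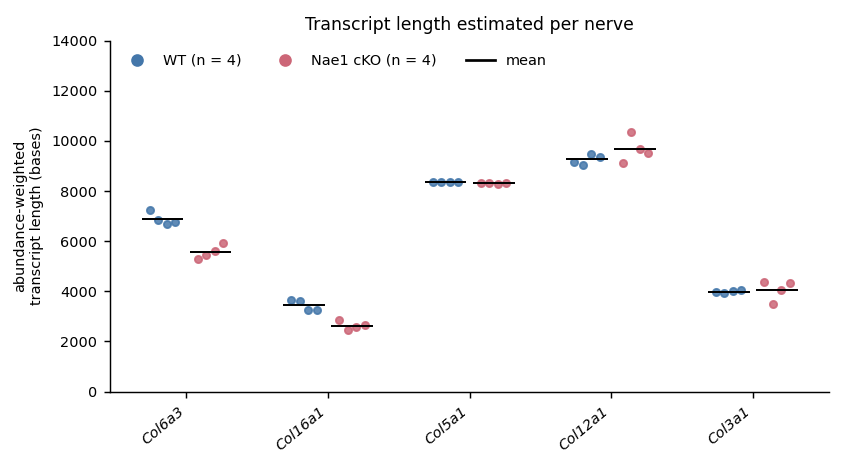
Abundance-weighted transcript length (bases, vertical axis from 0) estimated by RSEM for *Col6a3*, *Col16a1*, *Col5a1*, *Col12a1* and *Col3a1*, 1 point per nerve with the group mean as a bar. The 4 *Nae1* cKO nerves lie below the 4 WT nerves for *Col6a3* (5306 to 5938 against 6674 to 7259) and *Col16a1* (2463 to 2858 against 3244 to 3646), and overlap them for *Col12a1* and *Col3a1*.

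Collagen genes often lie side by side, and some neighbours shared a result and others did not. Of 10 pairs within 500 kb of each other (GENCODE vM21, GRCm38), *Col3a1* and *Col5a2*, tail to tail 24.6 kb apart on chromosome 1, were both higher, and so were *Col6a1* and *Col18a1*, 326 kb apart on chromosome 10. *Col19a1* was lower (−1.64) and *Col9a1*, 9.21 kb from it on chromosome 1, did not pass (0.11). *Col9a3* was lower and *Col20a1* higher, 364 kb apart on chromosome 2. The 3 head-to-head type IV pairs (*Col4a1* and *Col4a2*, *Col4a3* and *Col4a4*, *Col4a5* and *Col4a6*) held no called gene, with values of the same sign within each pair. The annotated starts of *Col4a1* and *Col4a2* overlap on opposite strands by 22 bases. *Col9a3* overlaps *Tcfl5*, *Col18a1* overlaps *Slc19a1* and *Col12a1* overlaps an antisense gene, each at under 8 CPM in both groups. Other overlapping genes had higher mean levels. On the same strand, *Gm38211* in *Col5a2* was at 34.8 CPM in WT and 60.0 CPM in *Nae1* cKO nerves, and *Gm43921* in *Col1a2* at 50.5 and 59.6 CPM. On the opposite strand, *2810430I11Rik* in *Col5a1* was at 18.3 and 12.3 CPM. The part of these genes in the collagen counts was not tested, and the strand setting of the counting is not given in the sources used here.

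Genes that make, trim, hold and cut collagen were counted from lists written for this tissue, by the same edgeR call that 26.4% of all genes passed. Of 21 enzymes and chaperones that modify and export procollagen, 6 were higher and 2 lower (median log2 fold change 0.13). The prolyl 3-hydroxylase *P3h2* (2.02) had the largest change, the chaperone *Fkbp10* (0.68) and *P3h4* (0.54) were higher, and *Tmem38b* (−1.09), a channel of the endoplasmic reticulum, was lower. Of 15 genes for processing and crosslinking, 6 were higher and 2 lower (median 0.17). The lysyl oxidases *Loxl2* (0.66) and *Loxl4* (0.81) were among the higher and the tolloid proteases *Tll2* (−2.64) and *Tll1* (−1.15) were the lower. Of 19 proteoglycans and organizers of fibres, 6 were higher and 1 lower (median 0.49), the higher including the thrombospondins *Thbs2* (1.84) and *Thbs4* (0.70) and the small proteoglycans *Dcn* (0.70) and *Lum* (1.06).

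Of 11 collagen receptors, 5 were higher and none lower (median 0.37), among them the integrin chain *Itga1* (0.96), *Cd44* (1.38), *Lair1* (0.57) and the tyrosine kinase *Ddr2* (0.37). Of 10 proteases that cut collagen and their inhibitors, 4 were higher and 2 lower (median 0.34). The inhibitor *Timp1* (2.55) and the membrane protease *Mmp14* (0.63) were higher, and *Mmp15* (−1.0) and *Mmp8* (−2.43) were lower. *Mmp8* rests on few counts, with a mean of 2.13 CPM in WT and 0.389 CPM in *Nae1* cKO nerves. Of 16 other basement membrane genes, 2 were higher and 6 lower (median −0.013), the lower including the laminin chains *Lama2* (−0.59), needed by Schwann cells to sort axons, and *Lamb1* (−0.43), the proteoglycan core *Hspg2* (−0.53) and *Nid2* (−0.41). Their summed level was 11958 to 13044 CPM in WT and 10076 to 10516 CPM in *Nae1* cKO nerves, with no overlap.

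Markers of cells in the nerve were counted by the same edgeR call, and the results differed between cell types. Of all genes tested, 14.1% were called higher and 12.3% lower. Of 12 fibroblast markers, 6 were higher and none lower (median 0.63), with a summed level of 1222 to 1314 CPM in WT and 1903 to 2361 CPM in *Nae1* cKO nerves and none at 0. *Dcn* (mean 539 CPM in WT), *Smoc2* (324), *Lum* (154) and *Pdgfra* (154) held most of that sum. *Pdgfra* was at 418 CPM in K2 and 242 to 252 CPM in the other *Nae1* cKO nerves. *Dpep1* (1.15), *Mfap5* (0.55), *Pi16* (0.23), *Dpt* (−0.034), *Sfrp2* (−0.35) and *Clec3b* (−0.53) did not pass. Of 11 macrophage markers, 8 were higher and none lower (235 to 257 CPM in WT and 415 to 535 CPM in *Nae1* cKO nerves). Of 10 endothelial markers, none was higher and 4 were lower (339 to 411 CPM in WT and 268 to 323 CPM in *Nae1* cKO nerves). Of 8 perineurial markers tested, 3 were higher and 1 lower (175 to 303 CPM in WT and 232 to 378 CPM in *Nae1* cKO nerves), and *Lgals7* of that list was at 0 in some nerve. Of 10 mural cell markers, 1 was higher and none lower (447 to 551 CPM in WT and 481 to 514 CPM in *Nae1* cKO nerves). The summed levels of the perineurial and of the mural markers overlapped between the groups. Of 9 Schwann lineage markers, 3 were higher and 3 lower (2973 to 3222 CPM in WT and 2485 to 2847 CPM in *Nae1* cKO nerves), 11 of 12 myelin proteins were lower, and 4 of 12 skeletal muscle markers were lower. *Dcn* and *Lum* belong to the fibroblast and to the proteoglycan list. The part that these cells have in the collagen results was not tested. Without K1 and L4, the 2 nerves with the most muscle RNA, 10 collagen genes were higher and 4 lower in a fit chosen after seeing the data, with the calls of *Col3a1*, *Col5a3*, *Col6a1*, *Col6a3*, *Col6a6*, *Col7a1*, *Col8a2* and *Col28a1* lost. In that fit, 13.5% of all genes were called (7.17% higher and 6.36% lower).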

How the data were processed

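Total RNA of 8 sciatic nerves was sequenced, and the labels put 4 in WT and 4 in *Nae1* cKO. The labels name no animal for each nerve, so p-values measure the spread between these libraries. Per the labels' processing notes, reads were checked with FastQC 0.11.5, aligned with STAR to GRCm38 and quantified with RSEM, whereas the study's methods name TopHat and Cuffdiff. Neither the annotation release nor the strand setting is given in the sources used here. The authors deposited, for each gene and nerve, an expected count (a fraction of a read can count where reads are shared among genes or isoforms), TPM, FPKM and an abundance-weighted transcript length, with no further filter: genes at 0 are listed. Paralogous chains can share reads, and RSEM then splits them by estimate.

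Expected counts were rounded to whole numbers, filtered with filterByExpr (17090 of 53090 genes kept), scaled by TMM and compared with edgeR's robust quasi-likelihood test (R 4.3.3, edgeR 4.0.16), with Benjamini-Hochberg adjustment over all genes tested and a call at an adjusted p under 0.05, also counted past 2-fold. The design has no covariate. CPM compares nerves, and TPM compares genes or chains within a nerve. The common biological coefficient of variation was 0.158. Libraries held 12962798 to 14766770 expected counts. No nerve was a copy of another: within groups, the chi-square per gene was 3.80 to 50.8. Chain ratios were compared with a two-sided exact permutation test. Alternatives were DESeq2 1.42.0, limma-voom (limma 3.58.1), limma on log2(TPM + 1), log2(TPM + 0.1) and log2(FPKM + 1), 2 other scalings, 2 other filters, the name letter (K or L) as a term, L nerves alone, each nerve left out, and 2 pairs of nerves left out. What the letters mean is not stated in the labels. Tests were tried on simulated counts first. Gene IDs were matched to GENCODE vM21 (52403 of 53090, with all 44 collagen genes), and promoters came from RefSeq on GRCm38.p6.

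The members, the 14 other gene lists, the tests and the alternatives were chosen with earlier results of these data known. Values in every nerve are given for called collagen genes, for the 3 with the highest TPM in each class and for chains whose ratio differed. Of each other list, up to 4 members with the smallest adjusted p are named, and more of the fibroblast markers. Some details of the design and marker lists are not reported here.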

Additional observations from a re-analysis of the deposited data

Results flagged for a closer look

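In 7 of 108 groups of 4 nerves tested, over the CPM of each collagen gene, the chain ratios and the class shares of TPM, a single nerve lay far from the other 3 (Dixon's test of the gap to the nearest nerve over the range). Chance flags about 1 group in 20. In *Nae1* cKO nerves, K2 was the distant one for 4 of the 7. It was at 11.9 CPM of *Col4a3*, a type IV chain known from kidney, against 3.13 to 4.39 CPM in the other 3, and at 13.1 CPM of the FACIT gene *Col20a1*, against 6.69 to 7.59 CPM. For *Col8a1*, of the type VIII network, K2 was low, at 268 CPM against 416 to 442 CPM. Its log2 ratio of *Col5a3* to *Col5a1* was −1.71, against −2.62 to −2.49. *Nae1* cKO nerve L1 was low for *Col26a1*, at 111 CPM against 137 to 142 CPM. WT nerve L3 was high for the cartilage collagen *Col2a1*, at 49.7 CPM against 14.2 to 16.5 CPM in the other WT nerves, and for the type V chain *Col5a1*, at 1855 CPM against 1476 to 1526 CPM. *Col2a1* and the *Col4a3* direction depended on the distant nerve, as given with their values above, while *Col8a1* and *Col20a1* passed the test with and without K2.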

How the results depend on the processing

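Of the 22 calls, 10 held in all 21 alternatives and *Col25a1* in the 20 that tested it, and *Col7a1* was the called gene whose sign changed, on TPM and FPKM. Of the 22 genes not called, 14 passed in no alternative. Calls over all genes moved too, and counts of called members are to be read beside them. They were 4510 of 17090 in the main fit and, with 1 nerve left out, 3583 of 17354 (L5) to 5227 of 17374 (K2). Of 17090, they were 5130 with library totals, 4770 with DESeq2 and 5256 with the name letter as a term. On log2(TPM + 1), log2(TPM + 0.1) and log2(FPKM + 1) they were 1577, 1484 and 4367. They were 4545 of 17146 in L nerves alone and 5159 of 17243 without K2 and L9. The median log2 fold change of all genes was 0.0066 with TMM. It was 0.16 with library totals, 0.10 on TPM (0.13 with a pseudocount of 0.1) and 0.13 on FPKM, and the collagen values on those scales are to be read relative to it. With a single nerve left out, there were 12 to 17 higher and 5 to 7 lower collagen genes, 1 to 2 called basement membrane collagens, 0.062 to 0.22 for the median of other collagens, 3 to 5 collagen receptors called, 2 to 4 endothelial markers called, 0 to 3 mural markers called, 0 to 10 muscle markers called and a difference in *Col4a2* over *Col4a1* of −0.039 to 0.049. Signs turned in some such fits for *Col5a1* (−0.058 to 0.087), *Col10a1* (−0.18 to 0.098), *Col17a1* (−0.21 to 0.13), *Col1a1* (−0.21 to 0.071), *Col15a1* (−0.094 to 0.11), *Col9a1* (−0.0033 to 0.22), *Col22a1* (−0.40 to 0.0083), *Col1a2* (−0.0069 to 0.19), *Col6a5* (−0.21 to 0.76), *Col4a3* (−0.22 to 0.97) and *Col13a1* (−0.35 to 6.7e-04), none past the threshold where the sign had turned. With DESeq2, there were 2 called basement membrane collagens, called list members were 10 muscle, and the sign turned for *Col5a1* −0.0054. With limma-voom, the median of other collagens was 0.25. With DESeq2 size factors, the sign turned for *Col5a1* −0.0054. Scaled by library totals, the median of all collagen genes was 0.26, the median of basement membrane collagens was 0.097 and the median of other collagens was 0.27, called list members were 2 endothelial, and the sign turned for *Col1a1* 0.093, *Col10a1* 0.13, *Col13a1* 0.037 and *Col17a1* 0.11. Without the filter on low counts, called list members were 1 muscle, and the sign turned for *Col5a1* −6.5e-04. With limma on log2(TPM + 1), there was 1 lower collagen gene, 3 collagen genes past 2-fold, 3 called fibrillar genes and 8 called other collagens, the median of all collagen genes was 0.21 and the median of other collagens was 0.20, called list members were 2 hydroxylase and chaperone, 5 processing, 2 receptor, 2 other basement membrane, 0 endothelial, 3 Schwann and 9 muscle, and the sign turned for *Col1a1* 0.098, *Col7a1* 0.066, *Col10a1* 0.075, *Col17a1* 0.0040 and *Col22a1* 0.11. On log2(TPM + 0.1), there was 1 lower collagen gene, 3 called fibrillar genes and 8 called other collagens, the median of all collagen genes was 0.31, the median of basement membrane collagens was 0.11 and the median of other collagens was 0.37, called list members were 2 hydroxylase and chaperone, 3 processing, 2 receptor, 2 other basement membrane, 0 endothelial, 3 Schwann and 8 muscle, and the sign turned for *Col1a1* 0.098, *Col7a1* 0.049, *Col10a1* 0.12 and *Col22a1* 0.34. On log2(FPKM + 1), there were 4 lower collagen genes, the median of all collagen genes was 0.25, the median of basement membrane collagens was 0.11 and the median of other collagens was 0.24, called list members were 3 receptor, 0 endothelial and 2 mural, and the sign turned for *Col1a1* 0.13, *Col4a1* 0.012, *Col4a2* 0.016, *Col7a1* 0.070, *Col10a1* 0.10 and *Col22a1* 0.16. With the name letter (K or L) as a term, there were 3 called basement membrane collagens, the median of other collagens was 0.25, and called list members were 2 mural and 1 muscle. In L nerves alone, there were 3 called basement membrane collagens, the median of all collagen genes was 0.23 and the median of other collagens was 0.24, called list members were 0 mural and 0 muscle, the difference in *Col4a2* over *Col4a1* was −0.021, and the sign turned for *Col9a1* −0.026, *Col13a1* 0.0058 and *Col17a1* 0.21. Without K2 and L9, there were 2 called basement membrane collagens, called list members were 3 mural and 8 muscle, and the sign turned for *Col4a3* −0.47, *Col4a4* −0.0069, *Col6a5* −0.38, *Col13a1* 0.043 and *Col17a1* 0.035. Without K1 and L4, there were 4 lower collagen genes and 9 called other collagens, called list members were 5 hydroxylase and chaperone, 5 processing, 3 receptor, 4 other basement membrane, 3 fibroblast, 2 perineurial, 1 endothelial, 0 mural, 3 Schwann and 2 muscle, and the sign turned for *Col5a1* −0.074, *Col9a1* −0.16 and *Col17a1* 0.090. On rounded counts, the difference in *Col4a2* over *Col4a1* was −0.050. The causes of these changes were not tested. The fits without K2 and L9 and without K1 and L4 were chosen after seeing the data and have fewer samples. The chain ratios cannot reach a smaller p than 0.0286 with 4 nerves against 4, or 0.1 in L nerves alone. *Col4a6*, *Col6a4*, *Col13a1*, *Col17a1* and *Col25a1* had group means under 3 CPM and rest on few counts. No paired analysis was possible because the nerves of the 2 groups share no replicate number.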
